A study of Mus musculus with 4 samples.

Results

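The mitochondrial ribosome genes are the genes whose symbols begin with *Mrpl* or *Mrps* followed by a number, and 77 of the 24421 genes listed had such a symbol. All 77 had an FPKM (a level per unit of gene length and of sequencing depth) of at least 1 in at least 2 samples, so all were among the 10776 genes in which the groups were compared. The symbols divided into 48 *Mrpl* and 29 *Mrps* genes. RNA was sequenced from CD69+DP thymocytes, which were sorted as CD69+CD4+CD8+ cells from the thymus of C57BL/6 mice aged 6 weeks. The 2 control samples came from Foxa1fl/flFoxa2fl/fl CD4Cre- mice, and the 2 Foxa1/2cKO samples from Foxa1fl/flFoxa2fl/fl CD4Cre+ mice, in which Cre under the *Cd4* promoter acts on the same floxed alleles from the DP stage. Different mice were used for each sample. The comparison asked whether transcript levels differed in DP thymocytes that had received a TCR signal when both forkhead factors were deleted.

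Mitochondria make a few proteins of the respiratory chain on ribosomes of their own. The RNA of these ribosomes is encoded in mitochondrial DNA, whereas every protein of the particle is encoded in the nucleus, made in the cytosol and imported. Some of these proteins descend from bacterial ribosomal proteins, and others are found only in mitochondria. The large subunit holds the peptidyl transferase centre, and the small subunit decodes the mRNA.

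By the place of the protein in the particle, 50 of the genes encode large subunit proteins and 26 small subunit proteins. *Mrps18a* and *Mrps30* carry names of the small subunit but their products sit in the large subunit. The product of the remaining gene, *Mrps36*, is not part of the ribosome and belongs to the 2-oxoglutarate dehydrogenase complex. Of the large subunit genes 31 have a bacterial homologue and 19 are mitochondria-specific, and in the small subunit these numbers were 17 and 9. On GRCm38.p6 the genes lay on 17 chromosomes, with 10 on chromosome 11 and 8 on chromosome 17.

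Sequences around the transcription start were available for 68 of the 77 genes, from RefSeq on GRCm38.p6, the assembly also called mm10. Each entry spans 250 bases before and 50 bases after the start. Letters of 4 promoter elements were searched on both strands: GCATGCGC (other strand GCGCATGC), the core of the site of the mitochondrial regulator NRF1; CCGGAAGT (ACTTCCGG), an ETS family site; AAGATGGC (GCCATCTT), a YY1 site; and TATAAA, the TATA box. The windows below are the 60 bases before the start of the genes described by name in later paragraphs that held NRF1 or ETS letters there. They show how close to the start these letters lie in genes of high and low level. The matching letters are in capitals, and each window reads 5′ to 3′ on the strand of its gene. They are chr5:31613891-31613950 for *Mrpl33* (plus strand), chr7:105811088-105811147 for *Mrpl17* (minus strand), chr9:105053208-105053267 for *Mrpl3* (plus strand), chr11:94653731-94653790 for *Mrpl27* (plus strand), chr3:94443276-94443335 for *Mrpl9* (plus strand) and chr9:98601680-98601739 for *Mrps22* (minus strand).
Mrpl33: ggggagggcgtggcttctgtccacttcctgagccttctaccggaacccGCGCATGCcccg
Mrpl17: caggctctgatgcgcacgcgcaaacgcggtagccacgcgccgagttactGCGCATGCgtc
Mrpl3: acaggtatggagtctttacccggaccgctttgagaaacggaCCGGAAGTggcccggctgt
Mrpl27: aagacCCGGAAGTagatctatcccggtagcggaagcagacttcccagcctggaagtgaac
Mrpl9: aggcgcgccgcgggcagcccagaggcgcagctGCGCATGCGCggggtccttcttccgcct
Mrps22: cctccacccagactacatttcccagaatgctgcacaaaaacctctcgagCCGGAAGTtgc

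The start here is that of the entry, which is not always the start of the listed gene. For *Mrpl9*, listed from 94443154, the window lies inside the gene, and for *Mrpl27*, listed from 94653770, it runs into the gene. In 51 of the 68 genes, 25 of the 50 bases after the start occur in the longest GENCODE transcript. In *Mrpl9* the GCATGCGC and GCGCATGC runs overlap in a palindrome, whose first base lies 28 bases before the start of its entry. The first matching base lies 11 bases before the start in *Mrpl17* and *Mrps22*, 12 in *Mrpl33*, 19 in *Mrpl3* and 55 in *Mrpl27*. The NRF1 letters were thus found in *Mrpl33*, among the 5 most abundant of the genes, and in *Mrpl17*, the least abundant.

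The NRF1 letters occurred in 8 of the 68 promoters (11.8%), compared with 6.72% of the 8180 tested genes with an entry and 3.05% of all 27025 genes with one. The ETS letters occurred in 12 (17.6%), against 10.4% of tested genes and 4.31% of all. The YY1 letters were also present in 12 (17.6%), against 5.93% and 3.19%. Most of these 12 genes held them only at or after the start, not in the bases before it. At least 1 of these 3 elements was found in 29 promoters (42.6%), against 21.2% of tested genes and 9.91% of all. TATA letters were found in 5 (7.35%), close to the 7.96% of tested genes. These shares describe letters only and were not tested. The log2 difference between the groups had a median of -0.10 in the 12 genes with ETS letters and of -0.0015 in the 56 without, of -0.01 in the 8 with NRF1 letters and -0.01 in the 60 without, and of 0.03 with YY1 letters and -0.04 without. In each case the ranges of genes with and without the letters overlapped.

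Many of the genes share a start region with a neighbour. A protein-coding start on the other strand lay within 500 bases for 25 of the 77 (32.5%), compared with 15.5% of the 9911 protein-coding genes tested. *Mrpl46* and *Mrps11*, of different subunits, start 412 bases apart on opposite strands of chromosome 7 in the GENCODE vM21 annotation used for these distances. *Mrps12*, which encodes a decoding-centre protein of the small subunit, starts 172 bases from *Sars2*, the mitochondrial seryl-tRNA synthetase. In this pair *Mrps12* had a log2 difference of 0.04 (standard error 0.09) and *Sars2* of -0.27 (standard error 0.09).

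The depth was 10381821 to 14460168 reads on listed genes per sample, as recovered from the steps between FPKM values, lower in both Foxa1/2cKO samples than in the controls, and between 52 and 1397 reads fell on each mitochondrial ribosome gene in each sample. *Foxa1* and *Foxa2* stood at 0 in each sample, the controls among them, and thus do not check the genotypes. All 12 markers of CD69+DP thymocytes were detected in every sample, and their summed FPKM ranged from 3814 to 3909 in the controls and from 3861 to 4864 in Foxa1/2cKO. Of these *Ptcra*, of the pre-TCR, had 11.2 and 11.9 FPKM in the controls, against 7.44 and 3.23 in Foxa1/2cKO. Foxa1/2cKO 2 stood apart in other lists. Its summed FPKM of 5 cycling markers was 123, against 339 and 356 in the controls and 396 in Foxa1/2cKO 1. For 5 mature SP markers the sum was 174, against 228 to 261 in the other samples. The 4 B cell markers summed to 73.1 and 48.7 FPKM for the controls, with 99.4 and 52.2 for Foxa1/2cKO, the 5 myeloid markers to 34.2 and 21.0 against 33.0 and 16.9, and the 4 thymic epithelial markers to between 3.16 and 4.15. The erythroid list summed to 2.67 or less, with its 4 haemoglobin genes at 0 in every sample. The part of these cells in the values below was not tested.

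The mitochondrial ribosome genes were expressed at moderate and unequal levels. Mean control FPKM ran from 3.91 for *Mrpl17* to 98.9 for *Mrpl52*, a 25.3-fold range, with a median of 28.1 compared with 14.9 over all genes tested. The lower and upper quartiles were 16.4 and 39.2, 8 genes were below 10 and 13 were at 50 or above. In Foxa1/2cKO the median was 29.0. The summed FPKM of the 77 genes was 2428 and 2465 for control 1 and 2, and 2395 and 2417 for Foxa1/2cKO 1 and 2. Thus both Foxa1/2cKO sums were below both control sums by a small margin. In bulk RNA of this kind, fewer cells of a type and less RNA per cell cannot be told apart.

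**Figure D1:**
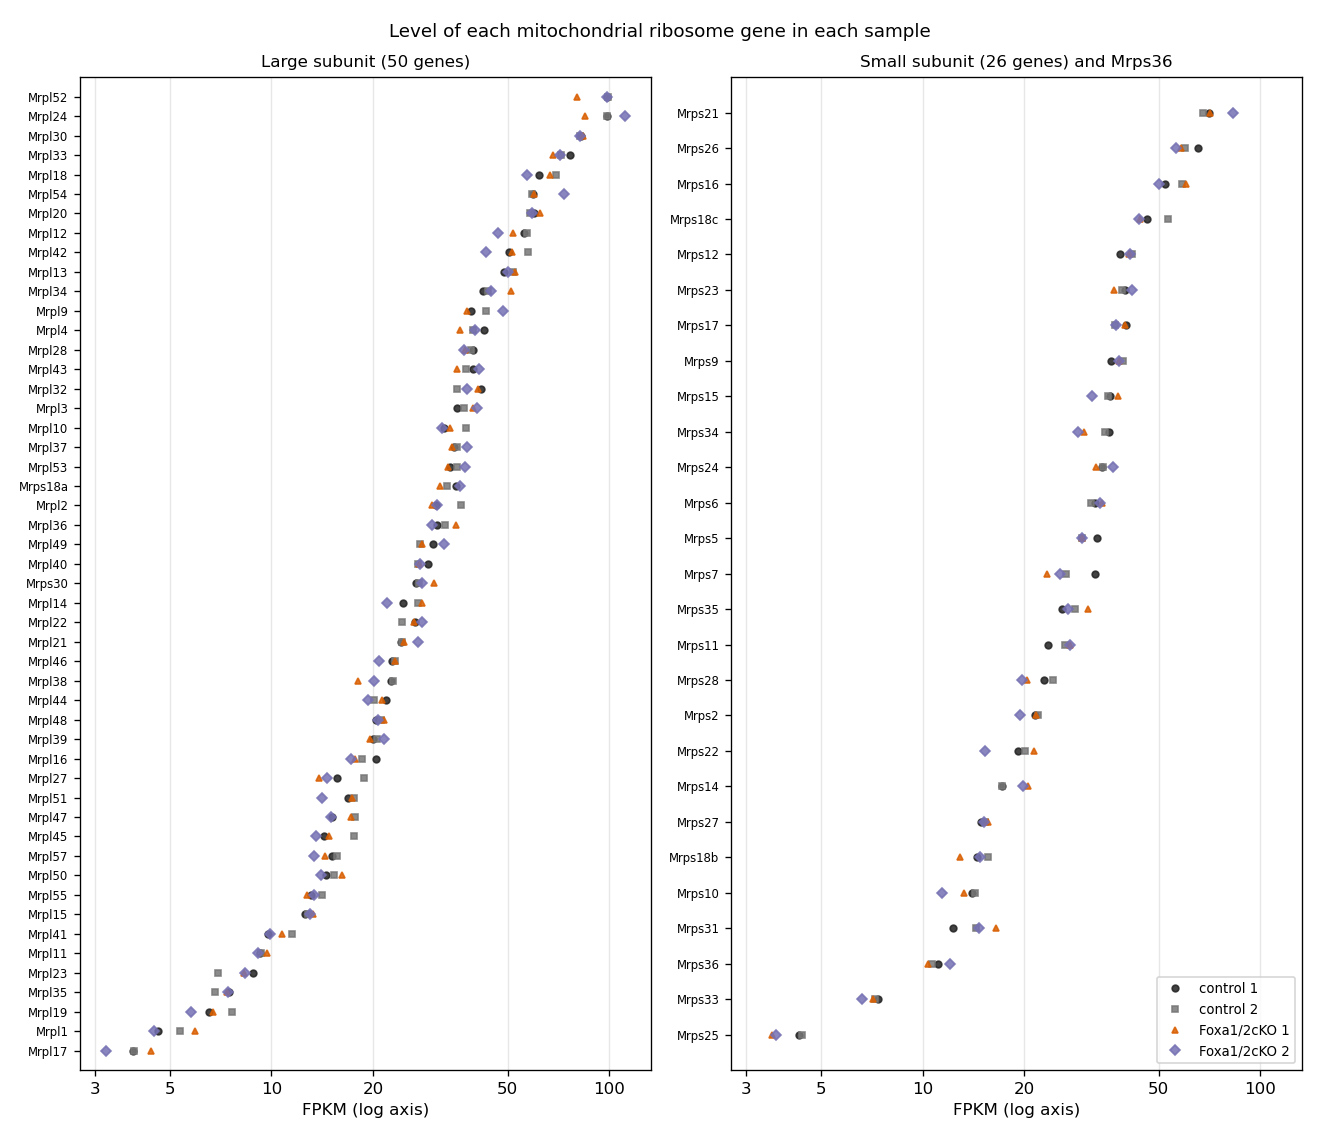
FPKM (log axis) of each mitochondrial ribosome gene in each of the 4 samples, with 1 point per sample, for the 50 large subunit genes (left) and for the 26 small subunit genes and *Mrps36* (right), ordered by mean control FPKM. The 4 points of a gene lie close together beside the range between genes, from 3.91 FPKM for *Mrpl17* to 98.9 for *Mrpl52* in the controls.

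The genes with a bacterial homologue had higher median levels than the mitochondria-specific genes in both subunits, at 33.6 and 23.0 FPKM in the large subunit and 32.0 and 19.6 in the small subunit. As whole subunits the medians were 27.6 for the large and 30.4 for the small. The genes with a bacterial homologue were also shorter, with median lengths of 959 against 1411 bases in the large subunit and 1043 against 1216 in the small. Within the 77 genes the level was lower in longer genes (Spearman's rho of -0.58 across genes, against -0.06 over all genes tested). The genes share the libraries and the annotation behind the lengths, and FPKM are themselves divided by length. The 77 genes were short, with a median length of 1053 bases against 2750.5 over all genes tested, and 70 of the 77 were shorter than that.

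*Mrpl52* (chromosome 14, 54426909 to 54429750, plus strand), a mitochondria-specific gene of the large subunit, had the highest level, at 98.6 and 99.2 FPKM in the controls, compared with 80.3 and 98.5 in Foxa1/2cKO. *Mrpl24*, whose product lies near the exit of the peptide tunnel, followed with 98.3 and 98.4 in the controls, with 84.9 and 111 in Foxa1/2cKO. For *Mrpl30* of the large subunit the FPKM was 82.7 and 82.2 for the controls, against 83.8 and 82.2 for Foxa1/2cKO. For *Mrpl52* the groups were apart only because Foxa1/2cKO 2 lay just under the controls, for *Mrpl24* the Foxa1/2cKO samples lay on either side of them, and for *Mrpl30* all samples were close. *Mrpl33*, which encodes a small protein of the large subunit, had 76.6 and 72.1 FPKM in the controls against 68.2 and 71.6 in Foxa1/2cKO. *Mrps21* of the small subunit had 70.6 and 67.7 in the controls, compared with 71.0 and 83.1 in Foxa1/2cKO. In both genes the groups were apart, but by less than the spread of the controls.

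At the lower end, *Mrpl17* (chromosome 7, 105803782 to 105811087, minus strand), which lies at the exit of the tunnel, was at 3.89 and 3.93 FPKM in the controls, with 4.39 and 3.24 in Foxa1/2cKO. *Mrps25*, a mitochondria-specific gene of the small subunit, had 4.31 and 4.40 FPKM in the controls against 3.57 and 3.69 in Foxa1/2cKO. *Mrpl1*, of the L1 stalk that handles the leaving tRNA, was at 4.63 and 5.35 in the controls, compared with 5.93 and 4.50 in Foxa1/2cKO. Both Foxa1/2cKO values lay below the controls for *Mrps25*, and they lay on either side of the controls for *Mrpl17* and *Mrpl1*. *Mrpl19* followed with 6.53 and 7.65 FPKM in the controls, with 6.72 and 5.77 in Foxa1/2cKO. *Mrpl35* had 7.47 and 6.80 in the controls against 7.39 and 7.44 in Foxa1/2cKO. These 5 genes were long for the group, at 3695 to 6712 bases. In GENCODE *Mrps25* shared 69.8% of its exonic bases with *Nr2c2*, and *Mrpl19* 36% with *Gcfc2*, so their levels are uncertain. The same limit holds for other genes, since 18 of the 77 had over 10% of their exonic bases overlapped. Among them were *Mrpl24* (26.3%) and *Mrps18b* (30.5%).

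The order of the genes was nearly the same in both groups. Ranked by mean FPKM, the largest change of place between control and Foxa1/2cKO was 10 and the median change was 2 (Spearman's rho of 0.99 across the 77 genes).

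No mitochondrial ribosome gene passed the threshold for a difference between the groups by limma on log2(FPKM + 1) with Benjamini-Hochberg adjustment over all 10776 genes. The number with an adjusted p under 0.05 was 0 of 77, against 0.00928% of all genes tested. Unadjusted, 0 of 77 had a p under 0.05 and a higher mean in Foxa1/2cKO (2.39% of all genes tested), and 1 of 77 had a p under 0.05 and a lower mean (2.15%). With limma-voom on the recovered reads 0 had an adjusted and 0 an unadjusted p under 0.05. The standard errors rest on 2 residual and 2.69 prior degrees of freedom, and with 2 samples a group an exact permutation test has a smallest two-sided p of 0.33. Without Foxa1/2cKO 1, 5 genes passed the adjusted threshold (6.49%, against 23.7% of all genes), and without Foxa1/2cKO 2, 0 did (0.176% of all genes). With 1 Foxa1/2cKO sample the spread rests on the controls, and the lone sample is assumed to vary as they do.

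The log2 differences were small and lay on both sides of 0. Their median was -0.02, compared with 0.01 over all genes tested, and 35 genes were higher and 42 lower by mean in Foxa1/2cKO (45.5% higher, against 51.3% of all genes). The rescalings kept the direction of this median. It was -0.04 with upper-quartile scaling (all genes -0.01), with 30 higher and 47 lower (39.0% higher, against 46.4% of all genes), and -0.05 with scaling to all recovered reads (all genes -0.03), with 23 higher and 54 lower (29.9% higher, against 43.0%). Correction for gene length turned it to 0.03 (all genes 0.02), with 43 higher and 34 lower (55.8% higher, against 55.1%). In all genes the log2 difference went up weakly with gene length (Spearman's rho of 0.15 across genes), and the 1622 tested genes of 780 to 1536 bases, the quartiles of the 77, had a median of -0.03. Within the 77 genes the same correlation was -0.04.

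The differences ranged from -0.26 for *Mrpl27* to 0.22 for *Mrps14*, and 0 of 77 exceeded 0.3 in size, against 12.5% of all genes tested. In the lists of 76 other genes for mitochondrial translation, described below, 3.95% exceeded it. The 95% interval lay within 1.5-fold of FPKM + 1 either way for 76 of the 77 (98.7%), against 70.2% of all genes and 86.8% of those lists. The exception was *Mrps7* (chromosome 11, 115604140 to 115608036, plus strand), whose product lies in the head of the small subunit, with an interval of -0.59 to 0.08. Its FPKM was 32.3 and 26.6 in the controls, compared with 23.3 and 25.6 in Foxa1/2cKO, and the difference between the controls, -0.27 on the log2 scale, was as large as that between the groups, -0.25. A fold of FPKM + 1 understates the fold of FPKM in genes of low level. For *Mrps25* the difference was -0.21, and -0.26 with a pseudocount of 0.1. How many intervals stay within 1.5-fold with that pseudocount was not examined.

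**Figure D2:**
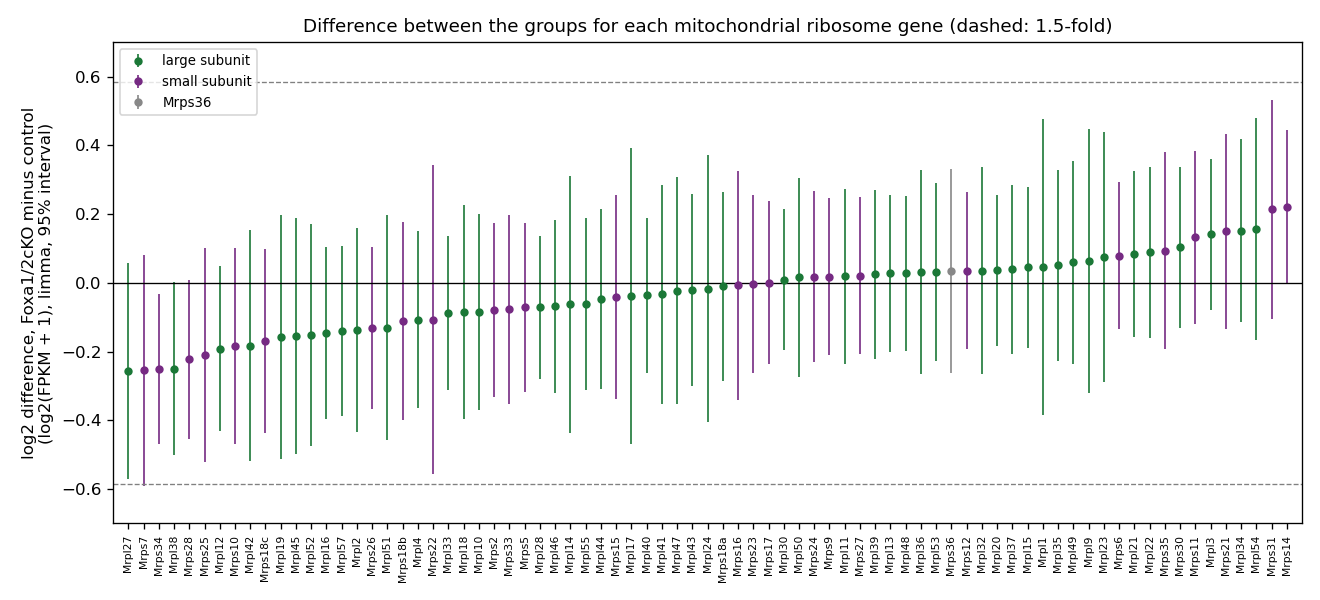
Fitted log2 difference (Foxa1/2cKO minus control, on log2(FPKM + 1)) of each mitochondrial ribosome gene, with its 95% interval from limma, in order of size and coloured by subunit. The dashed lines mark a 1.5-fold difference of FPKM + 1, and the interval of 1 gene, *Mrps7*, passes a line, at -0.59.

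For 27 of the 77 genes there was no overlap between the groups (35.1%, against 36.7% of all genes tested). In 11 genes the Foxa1/2cKO samples were both above the controls (14.3%, against 18.9%) and in 16 both below (20.8%, against 17.8%). These shares are near the background. With upper-quartile scaling the split was 6 above and 20 below (17.7% and 19.8% of all genes), with scaling to all recovered reads 5 and 20 (15.8% and 22.0% of all genes), and after length correction 16 and 10 (20.002% and 15.7% of all genes).

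*Mrps34* (chromosome 17, 24895120 to 24896289, plus strand), which encodes a mitochondria-specific protein of the small subunit, was the 1 gene with an unadjusted p under 0.05. Its FPKM was 35.7 and 34.8 in the controls, with 30.01 and 28.9 in Foxa1/2cKO, from 288 to 480 reads. The samples of each group lay close together and the groups did not overlap. The log2 difference was -0.25 (standard error 0.08, 95% interval -0.47 to -0.03), with an unadjusted p of 0.0316 and an adjusted p of 0.863 from limma with Benjamini-Hochberg adjustment. *Mrps34* shares 77.8% of its 2064 exonic bases in GENCODE with *Mapk8ip3* and *Nme3*. The length behind its FPKM was only 898 bases, so the shared part of the counted bases is not known. The use of strand in counting is not given in the sources used here either, so its level is uncertain.

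The other genes with the smallest p among those lower in Foxa1/2cKO belonged to both subunits. *Mrpl38* (chromosome 11, 116131817 to 116138868, minus strand), of the central protuberance that contacts the tRNAs, was at 22.6 and 22.9 FPKM in the controls against 17.99 and 20.1 in Foxa1/2cKO, a log2 difference of -0.25 (standard error 0.10). *Mrps28* of the small subunit was at 22.9 and 24.3 and then at 20.4 and 19.7, with a difference of -0.22 (standard error 0.09). *Mrpl27*, also of the central protuberance, was at 15.6 and 18.8 and then at 13.8 and 14.6, with a difference of -0.26 (standard error 0.12). In each of these genes both Foxa1/2cKO samples were below both controls, and the adjusted p from limma was 0.863. The difference of *Mrpl27* was -0.38 without control 1 and -0.13 without control 2. *Mrpl27* had the fewest reads of the 3, 109 to 186 per sample, and 39.0% of its 50-base stretches, taken along the longest transcript annotated, also occur in other genes, processed pseudogenes among them.

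Among those higher in Foxa1/2cKO, *Mrps14* of the small subunit (chromosome 1, 160195215 to 160201186, plus strand) was at 17.2 FPKM in both controls and at 20.5 and 19.8 in Foxa1/2cKO. Its log2 difference was 0.22 (standard error 0.09), with an unadjusted p of 0.0526 and an adjusted p of 0.863 from limma. The mitochondria-specific *Mrps31* had 12.3 and 14.4 FPKM in the controls, compared with 16.5 and 14.7 in Foxa1/2cKO, a difference of 0.21 (standard error 0.12). *Mrps14* kept its groups well apart, while control 2 and Foxa1/2cKO 2 were nearly equal for *Mrps31*, whose difference was 0.11 without control 1 and 0.32 without control 2. *Mrpl3*, which reaches towards the peptidyl transferase centre, had 35.3 and 37.1 FPKM in the controls, with 39.4 and 40.6 in Foxa1/2cKO, a difference of 0.14 (standard error 0.08). *Mrpl34*, a small protein of the large subunit, had 42.2 and 43.8 FPKM in the controls against 51.2 and 44.8 in Foxa1/2cKO, a difference of 0.15 (standard error 0.10). The difference of *Mrpl34* was 0.06 without Foxa1/2cKO 1 and 0.25 without Foxa1/2cKO 2. *Mrps21*, given above, was the fifth of this set at 0.15 (standard error 0.11), and at 0.04 without Foxa1/2cKO 2.

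The genes of the large subunit stalks, where translation factors dock and the leaving tRNA is handled, were not all on one side. Of their 6 genes 4 were higher and 2 lower by mean, with a median log2 difference of 0.03. *Mrpl12*, which forms the flexible stalk and also associates with the mitochondrial RNA polymerase, had 56.0 and 57.0 FPKM in the controls, compared with 51.9 and 46.9 in Foxa1/2cKO (difference -0.19, standard error 0.09). *Mrpl10*, which anchors *Mrpl12* to the particle, had 32.5 and 37.7 in the controls, with 33.9 and 32.0 in Foxa1/2cKO. For *Mrpl12* both Foxa1/2cKO samples were below the controls, and for *Mrpl10* the groups overlapped. *Mrpl11*, at the base of the stalk, had 9.23 and 9.30 FPKM in the controls against 9.71 and 9.10 in Foxa1/2cKO. The mitochondria-specific *Mrpl54* had 59.4 and 59.2 in the controls, compared with 59.8 and 73.4 in Foxa1/2cKO (difference 0.16, standard error 0.12), so its higher mean came from Foxa1/2cKO 2. *Mrpl53* had 33.7, 35.4, 33.3 and 37.5 FPKM in the same order of samples. In GENCODE 88.0% of its 790 exonic bases overlap other annotated genes, whereas the length behind its FPKM was 620 bases.

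In the central protuberance 1 of 7 genes was higher and 6 were lower by mean, with a median log2 difference of -0.07. Around the peptide exit tunnel 3 of 8 were higher and 5 lower, with a median of -0.02. None of the genes of these sets passed the adjusted threshold of limma, and 0 had an unadjusted p under 0.05. By origin the medians were -0.01 and -0.03 for the bacterial and the mitochondria-specific genes of the large subunit, and -0.01 and -0.08 for those of the small subunit.

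The *Mrps18* genes encode related proteins with different places in the particle. *Mrps18a*, whose product is in the large subunit, was at 35.1 and 33.1 FPKM in the controls, with 31.6 and 36.2 in Foxa1/2cKO. *Mrps18b* was at 14.5 and 15.6 in the controls against 12.9 and 14.8 in Foxa1/2cKO, and *Mrps18c*, the most abundant of the family, at 46.2 and 53.1 and then at 44.1 and 43.8. The groups overlapped for *Mrps18a* and *Mrps18b* and did not for *Mrps18c* (difference -0.17, standard error 0.10), which stood at -0.27 without control 1 and -0.07 without control 2. *Mrps30*, of the large subunit, was at 26.8 and 27.3 FPKM in the controls, compared with 30.4 and 27.9 in Foxa1/2cKO. *Mrps36*, outside the ribosome, was at 11.1 and 10.7 in the controls, with 10.3 and 12.1 in Foxa1/2cKO, from 80 to 119 reads.

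The samples of one group lay close together for most mitochondrial ribosome genes. The absolute log2 difference between the 2 controls had a median of 0.08, close to the 0.08 of all genes tested, and that between the 2 Foxa1/2cKO samples a median of 0.13, compared with 0.20. The SD of the difference across genes was 0.12 and 0.17 for the 77 genes, against 0.20 and 0.40 over all genes. The controls differed by more than 1.96 counting errors in 9 of the 77 (11.7%, against 20% of all genes tested), and the Foxa1/2cKO samples in 19 (24.7%, against 52.9%). Of these 19, 8 were higher and 11 lower in Foxa1/2cKO 2. Counting error depends on the reads per gene, and the larger share in all genes was not tested against it.

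**Figure D3:**
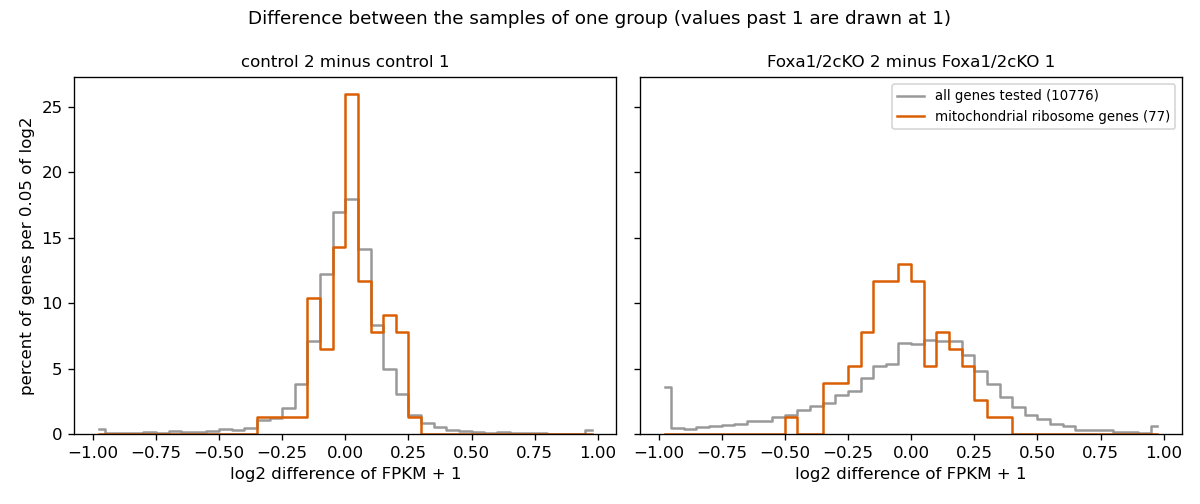
Share of genes (percent per 0.05 of log2) by the log2 difference between the samples of one group, for the controls (left) and the Foxa1/2cKO samples (right), for the 77 mitochondrial ribosome genes and all 10776 genes tested. The 77 genes keep to a narrower band between the Foxa1/2cKO samples, with an SD of 0.17 against 0.40. Other genes for mitochondrial translation, not drawn here, had an SD of 0.22.

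The genes that differed most between the Foxa1/2cKO samples came from both subunits. *Mrpl24*, given above, was 0.39 higher in Foxa1/2cKO 2 on the log2 scale, from 870 and 1172 reads, while its controls differed by 0.00. *Mrpl9*, whose product is a long protein of the large subunit, had 38.98 and 43.2 FPKM in the controls against 37.95 and 48.6 in Foxa1/2cKO, 0.35 higher in Foxa1/2cKO 2, and *Mrpl52* was 0.29 higher there. For *Mrps22*, of the small subunit, the Foxa1/2cKO samples lay on opposite sides of the controls, with 19.2 and 20.05 FPKM in the controls, compared with 21.4 and 15.3 in Foxa1/2cKO, a difference of -0.45 between the latter. *Mrpl17* and *Mrpl1* were lower in Foxa1/2cKO 2 by differences of -0.35 and -0.33. The mean differences between the groups for these genes, from -0.15 for *Mrpl52* to 0.06 for *Mrpl9*, were smaller than the differences between their Foxa1/2cKO samples. Without Foxa1/2cKO 1, the 5 genes past the adjusted threshold of limma were *Mrpl54* (0.30), *Mrps21* (0.26), *Mrpl12* (-0.26), *Mrps34* (-0.28) and *Mrps22* (-0.33), of which *Mrps22* had a difference of 0.12 without Foxa1/2cKO 2.

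The lists of other genes for mitochondrial translation held 76 genes, all tested, and 0 had an adjusted p under 0.05 from limma. Unadjusted, 0 were higher (2.39% of all genes tested) and 4 lower (5.26%, against 2.15%) with a p under 0.05, and the median log2 difference was 0.01, as over all genes tested. There was no overlap between the groups in 25 (32.9%, against 36.7% of all genes tested), 8 above (10.5%, against 18.9%) and 17 below (22.4%, against 17.8%). Without Foxa1/2cKO 1, the adjusted p from limma was under 0.05 for *Polg* (0.00782), *Sars2* (0.0409) and *Slirp* (0.0415) among the genes named below, where 23.7% of all genes passed. The 6 mitoribosome subunits with other symbols all had a higher mean in Foxa1/2cKO (51.3% of all genes tested did). Their differences were 0.02 to 0.15, with a median of 0.04. In 2 of the 6 the groups did not overlap (33.3%, against 36.7% of all genes tested), which is near the background. The smallest differences were those of *Chchd1* (0.026) and *Ptcd3* (0.022). Both are below the 0.032 of *Mrpl53*, which turned to -0.0023 with scaling to all recovered reads. The shared direction of the 6 is therefore not secure under the rescalings. *Gadd45gip1*, a large subunit protein, had the smallest p of these, at 23.1 and 24.0 FPKM in the controls, against 25.8 and 26.8 in Foxa1/2cKO (difference 0.15, standard error 0.09, adjusted p of 0.863 from limma).

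Among 26 genes of mitoribosome assembly and rRNA modification 13 were higher and 13 lower by mean. *Mrm1*, which methylates the large mitochondrial rRNA, had 5.15 and 5.11 FPKM in the controls against 4.001 and 3.75 in Foxa1/2cKO (difference -0.33, standard error 0.12, unadjusted p of 0.0383 and adjusted p of 0.863 from limma). *Ngrn*, an assembly factor, had the smallest p of those higher, at 20.8 and 21.4 in the controls, compared with 21.9 and 23.3 in Foxa1/2cKO. Of 15 translation factors 5 were higher and 10 lower. *Slirp*, an RNA-binding protein that keeps mitochondrial mRNA stable, had 33.6 and 37.3 FPKM in the controls, with 29.8 and 28.4 in Foxa1/2cKO (difference -0.27, standard error 0.10, unadjusted p of 0.0378 from limma), and *Mtif3*, an initiation factor, had 4.86 and 4.62 and then 5.09 and 5.52. In both genes the groups did not overlap.

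Of 19 mitochondrial aminoacyl-tRNA synthetases 10 were higher and 9 lower. *Sars2* had 18.3 and 18.7 FPKM in the controls against 15.3 and 15.0 in Foxa1/2cKO (difference -0.27, unadjusted p of 0.0282 and adjusted p of 0.863 from limma). *Kars*, the lysyl-tRNA synthetase of cytosol and mitochondria, had 71.8 and 73.5 in the controls, compared with 63.7 and 58.8 in Foxa1/2cKO (difference -0.24, standard error 0.09). *Yars2*, for tyrosine, had 12.3 and 12.7 in the controls, with 14.0 and 13.9 in Foxa1/2cKO. All 3 synthetases kept their groups apart, in different directions. Among 10 genes for the transcription and upkeep of mitochondrial DNA 6 were higher and 4 lower. *Polg*, the mitochondrial DNA polymerase, had 61.7 and 62.8 FPKM in the controls against 59.1 and 81.4 in Foxa1/2cKO, so only Foxa1/2cKO 2 was above the controls. Without Foxa1/2cKO 1 its difference was 0.38, and without Foxa1/2cKO 2 it was -0.07. *Peo1*, the mitochondrial DNA helicase, had 9.69 and 10.96 in the controls, compared with 8.92 and 8.66 in Foxa1/2cKO.

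**Figure D4:**
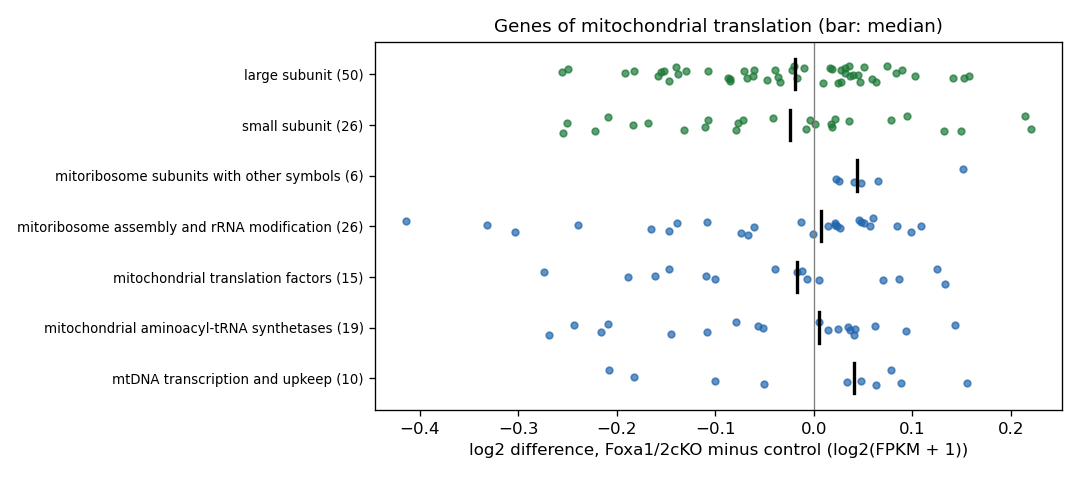
Log2 difference (Foxa1/2cKO minus control, on log2(FPKM + 1)) of each gene of the 2 ribosomal subunits and of the 5 other lists for mitochondrial translation, with 1 point per gene and a bar at the median of each list. The medians lie between -0.02 and 0.04.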

How the data were processed

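Per the labels and the study's methods, reads were mapped by the authors to mm10 and counted over RefSeq genes with HTSeq in union mode, which leaves out reads that overlap several genes (the labels list TopHat, Picard and DESeq2). The authors deposited 1 FPKM value for each gene in each sample. The step that made them is not given in the sources used here. Their steps gave whole reads for 100% of the 16069 genes above 0 (tolerance 0.01 of a read), up to a common divisor, and 97.5% of the 120 genes used to set the depth then had a whole length. Counting errors cover these reads only. The recovered divisor of the FPKM was not the number of these reads. For Foxa1/2cKO 2 it was 11093927, below the 11249535 reads recovered, whereas in each other sample it was above the reads recovered.

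The groups were compared with limma 3.58.1 in R 4.3.3, with a trend, on log2(FPKM + 1) for genes that reached an FPKM of 1 in 2 or more samples, and P-values were adjusted by Benjamini-Hochberg, with a threshold of 0.05. The pseudocount of 1 understates differences of low genes. Scripts were tested on simulated data. The labels give no batch or sort date. Coordinates and promoters were taken from RefSeq (GRCm38.p6), and overlaps and 50-base stretches from the GENCODE vM21 annotation of the same assembly. Promoter entries were matched by symbol. Tables were made with pandas 2.3.3, numpy 2.4.6 and scipy 1.17.1 in Python 3.11.15, and plots with matplotlib 3.10.9.

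Genes and lists were chosen with earlier results of these data known. Named were the 5 highest and 5 lowest genes by control mean, the 5 per direction with the smallest p among genes whose groups did not overlap, the 3 per direction that differed most between the Foxa1/2cKO samples, the stalk and *Mrps18* genes, *Mrps30*, *Mrps36*, and per list the gene with the smallest p in each direction. *Mrps7*, *Kars*, *Mrps11*, *Mrps12* and *Mrpl46* were named after their values were seen. All columns of per-sample values were used. Alternatives were a pseudocount of 0.1, no filter, a minimum of 10 reads per sample, upper-quartile scaling, scaling to all recovered reads, a replicate block, loess correction for gene length with and without the block, limma-voom on recovered reads, and leaving out each sample.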

Additional observations from a re-analysis of the deposited data

How the results depend on the processing

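The number of mitochondrial ribosome genes with an adjusted p under 0.05 from limma was 0 under every setting with all 4 samples and 0 to 5 with each sample left out, 5 being the count without Foxa1/2cKO 1. The number with an unadjusted p under 0.05 from limma, 1 in the report, was 4 with no filter on low values. It was 3 with upper-quartile scaling, 3 with scaling to all recovered reads and 0 with limma-voom. It was also 1 with length correction, but this gene was *Mrps14* (higher in Foxa1/2cKO, p of 0.0389 from limma), and *Mrps34* then had a p of 0.0652. The replicate number fitted as a block gave 0, without and with length correction. The shares of all genes with such a p are not given for these settings. These counts therefore do not set the mitochondrial ribosome genes apart from other genes. The study's methods describe independent sorts from different mice, with mice of both genotypes in each sort. Whether samples of the same replicate number were sorted together is not given there or in the labels. The deviations of replicate 1 in the groups correlated at -0.059 across 10776 genes. As 1 value from 4 samples, this cannot show whether the samples are paired. The block changed no other call. The median log2 difference was -0.052 with scaling to all recovered reads, 0.027 with length correction, 0.027 with length correction and the block, and -0.031 to 0.0065 with each sample left out. The number of genes whose groups did not overlap was 42 to 59 with each sample left out, since fewer samples must then be apart. The share over all genes is not given for that case. The cause of the other shifts was not tested.

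Over the 39 named genes and 9 settings with all samples, 343 of 351 values kept their direction and side of the threshold, and 0 passed it. The 8 others turned direction in 5 genes, all with a difference of 0.032 or less in size: *Mrpl30* to -0.011 with upper-quartile scaling and -0.025 with scaling to all recovered reads, where *Mrpl11* was -0.013 and *Mrpl53* -0.0023, and *Mrpl24* to 0.027 and *Mrps18a* to 0.034 with length correction, without and with the block. With each sample left out the differences were -0.21 to 0.18 for *Mrpl24*, -0.0042 to 0.023 for *Mrpl30*, -0.21 to 0.13 for *Mrpl17*, -0.12 to 0.21 for *Mrpl1*, -0.0085 to 0.11 for *Mrpl35*, -0.11 to 0.24 for *Mrpl9*, -0.33 to 0.12 for *Mrps22*, -0.19 to 0.021 for *Mrpl10*, -0.023 to 0.061 for *Mrpl11*, -0.051 to 0.12 for *Mrpl53*, -0.10 to 0.085 for *Mrps18a*, -0.068 to 0.14 for *Mrps36* and -0.072 to 0.38 for *Polg*. Leaving out a sample moved 15 more of the 39 by over 1.5 times in the same direction, among them *Mrpl27*, *Mrps31*, *Mrpl34* and *Mrps18c*. *Mrpl23*, *Mrps33* and *Mrps36* had under 100 reads in a sample, where counting error is larger.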
